A study of Mus musculus with 20 samples.

Results

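Ifit1, Ifit2, Ifit3 and Ifit3b, the mouse genes of the family of interferon-induced proteins with tetratricopeptide repeats, were followed across 20 single-colour microarrays. They were chosen by name: every probe whose gene name or synonym was one of the 4, which gave 5 of the 39429 probes on the array and 4 of its 24124 named genes. Ifit1, Ifit2 and Ifit3 had 1 probe each and Ifit3b, listed on the array under a clone name, had 2 (called probe 1 and probe 2, the brighter first).

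The study measured RNA from 3 sources in mice labelled Irgm1-/- and in wild type (WT) mice, and its title asks which interferon-stimulated genes are raised in several tissues of the Irgm1-/- mice. Irgm1 encodes an interferon-induced GTPase of the immunity-related family, known for roles in autophagy and in the control of intracellular bacteria. All mice were on a C57BL/6 background and were housed free of specific pathogens, and 1 mouse gave 1 array per source. Whole salivary gland came from 4 female Irgm1-/- mice of 9 weeks and from 4 female WT mice of 6 to 7 weeks. Whole duodenum, called small intestine here, came from 3 Irgm1-/- mice (2 male, 1 female) and 3 female WT mice, all of 6 to 8 weeks. Macrophages isolated from the colon came from the same 6 mice, going by the animal numbers that the deposited files carry, and genotype, sex and age matched for 6 of the 6. Genotype therefore cannot be told apart from age in salivary gland, and it ran with sex in the other 2 sources. Which part of the gene is deleted was not stated in the labels.

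Ifit proteins are made at low level in resting cells and are among the genes most strongly induced when a cell responds to type I or type III interferon or senses a virus inside it. The proteins bind RNA. Ifit1 holds on to messenger RNA whose cap lacks ribose methylation, a mark that host messages carry and many viral messages lack, and so blocks its translation. Ifit2 limits several RNA viruses in mice, and human IFIT3 binds IFIT1 and stabilises it on RNA.

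The brightness of an array, as the 75th percentile of its intensities, was 130 to 1022 for salivary gland, 2322 to 4690 for small intestine and 922 to 2137 for macrophages, and the share of probes well above background ran from 25.3% to 48.7%, from 52.6% to 62.1% and from 57.1% to 74.2%. All levels below are log2 signals minus a 75th percentile of the array unless another scale is named, taken over all probes in the gut sources and, in salivary gland, over the probes well above background on all 8 of its arrays. Between genotypes, 279 of 9737 genes tested passed an adjusted p of 0.05 in salivary gland, 29 of 15402 in small intestine and 39 of 17024 in macrophages (limma, Benjamini-Hochberg). An unadjusted p under 0.05 in the same fits was reached by 2181, 1094 and 2025 genes of these sources, in that order. The targeted gene went against its label. The brighter of 2 Irgm1 probes read 0.44, -0.05, -0.80 and -0.21 on the salivary gland arrays labelled Irgm1-/-, against -2.85, -2.90, -2.68 and -2.76 on the WT arrays. It read 2.16, 2.09 and 2.24 in small intestine labelled Irgm1-/-, against 0.96, 1.1 and 0.94 in WT, and 0.50, 0.95 and 0.47 in macrophages labelled Irgm1-/-, against -0.69, 0.24 and -0.26 in WT. Every array labelled Irgm1-/- thus lay above every WT array of its source, with adjusted p of 0.00043 in salivary gland, 0.0396 in small intestine and 0.27 in macrophages. With the replicate number as a block it was 0.188 in small intestine and 0.0472 in macrophages. The other Irgm1 probe, which was not tested, separated the labels the same way. Its mean was higher in Irgm1-/- by 2.26 in salivary gland, 1.18 in small intestine and 1.16 in macrophages. A probe outside a deleted part checks nothing about the genotype, so every direction below is that of the labels.

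The labelled tissues were set against their marker genes. All 6 enterocyte markers were well above background on every small intestine array, and 7 salivary markers on every Irgm1-/- and 6 to 7 on every WT salivary gland array. In the macrophage arrays 8 to 9 of 9 macrophage markers were well above background, but their summed level did not stand above that of whole small intestine. On a linear scale shared by the 20 arrays the sum ran from 0.93 to 2.41 in Irgm1-/- and from 1.46 to 5.32 in WT macrophage samples, and from 3.21 to 4.47 in Irgm1-/- and from 1.78 to 2.76 in WT small intestine. With arrays set to the 75th percentile of all probes, the sum was 5.94 to 12.0 in Irgm1-/- and 8.56 to 27.5 in WT macrophage samples, and 28.4 to 38.9 in Irgm1-/- and 21.6 to 27.1 in WT small intestine. On both scales the Irgm1-/- macrophage samples lay below Irgm1-/- small intestine, and the WT samples of both sources overlapped. The macrophage arrays also held 4 to 5 of 6 enterocyte markers and 3 of 3 smooth muscle markers well above background, so they are called macrophage samples by their label only.

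The first 30 bases of each 60-base probe are shown because Ifit3 and Ifit3b are close copies and their signals can be told apart only as far as the probes differ. All 4 genes lie on chromosome 19, where Ifit2, Ifit3, Ifit3b and Ifit1 follow each other in the RefSeq annotation with Ifit1bl1 and Ifit1bl2 between them.
Ifit1: cacacattactggaaagatactaagaacca
Ifit2: tcatataaacatttatttcaagagtatgga
Ifit3: caattttccagtcagcaaacctcattacta
Ifit3b probe 1: cttaaagctcacagaccaccttttgatcac
Ifit3b probe 2: tgccaaatggaaattgtagaataaatgtaa
The longest run of bases shared by the full Ifit3 probe and Ifit3b probe 1 was 8 of 60, and between any other pair of the 5 probes it was 5 to 8. Each probe therefore sits on different sequence, but the transcripts themselves were not used here, so whether the Ifit3 probe also finds Ifit3b RNA, or the reverse, was not tested.

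The stretch before each annotated start is shown for 3 of the genes, in lower case with matches to the core of the interferon-stimulated response element in capitals, since the study asks about interferon-stimulated genes. The motif searched was GAAANNGAAA on both strands, in the 250 bases before the start, from RefSeq promoters of build GRCm38.p6.
Ifit1, chr19:34640744-34640888, plus strand: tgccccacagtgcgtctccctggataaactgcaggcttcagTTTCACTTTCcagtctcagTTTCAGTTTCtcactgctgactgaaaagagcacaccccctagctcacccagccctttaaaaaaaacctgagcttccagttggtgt
Ifit3, chr19:34583359-34583528, plus strand: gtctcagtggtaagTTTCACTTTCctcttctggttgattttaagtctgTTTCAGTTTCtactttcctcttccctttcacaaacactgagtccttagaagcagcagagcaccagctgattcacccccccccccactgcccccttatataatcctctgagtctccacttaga
Ifit3b, chr19:34607757-34607956, plus strand: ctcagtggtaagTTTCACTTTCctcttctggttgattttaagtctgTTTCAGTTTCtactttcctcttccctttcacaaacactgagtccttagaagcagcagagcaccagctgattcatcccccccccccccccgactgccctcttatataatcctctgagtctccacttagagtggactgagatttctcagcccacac
Each of these 3 held 2 matches, both on the opposite strand, and the same letters fill the open positions in all 3 genes. The matches began 104 and 85 bases before the start of Ifit1, 156 and 122 before that of Ifit3 and 188 and 154 before that of Ifit3b. Of 32851 promoter windows of the same length in the table, 2.98% held at least 1 match and 0.18% held more than 1. Over 300 bases around the start, Ifit3 and Ifit3b were identical at 259 of 274 aligned positions (94.5%), with the annotated starts at different points of the shared sequence. The Ifit1 stretch ends where the neighbouring gene Ifit1bl2 starts on the other strand, 146 bases from the Ifit1 start, so its 2 matches lie between the starts of both genes. Ifit2 has 2 annotated starts, and neither window held these letters. One of the Ifit2 windows held a match to the gamma-activated sequence core TTCNNNGAA, which 7.02% of windows hold and which overlaps the first motif nowhere in the 4 genes.

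**Figure D1:**
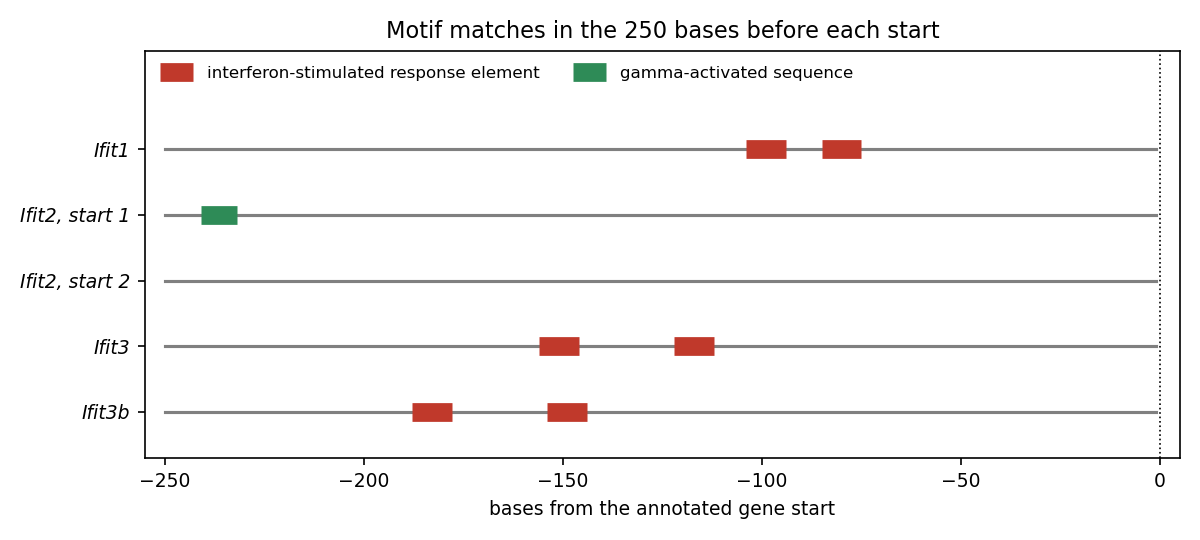
Matches to the interferon-stimulated response element (red) and gamma-activated sequence (green) motifs in the 250 bases before each annotated start; the x axis gives the distance from the start in bases and Ifit2 has 2 annotated starts. Ifit1, Ifit3 and Ifit3b each show 2 red matches and the 2 Ifit2 windows show none.

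In salivary gland, 2 of the 4 genes could be tested and both rose in the Irgm1-/- samples. The rise was a measured 26.1-fold for Ifit3, and for Ifit3b 16.3-fold against the dimmest signals called well above background in WT. The WT signals of Ifit3 and Ifit3b were well above background on 2 and 0 of 4 arrays. Of all genes tested there, 2.63% rose past the same threshold. Ifit1 was not bright enough in WT to be tested, yet all 4 Irgm1-/- arrays lay above all 4 WT arrays, as they did for 11.3% of the genes tested. Ifit2 was at the limit of detection. These are whole-tissue samples, in which more cells of a type and more RNA per cell cannot be told apart.

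Ifit3 read 1.48, 0.57, 0.05 and -0.13 in Irgm1-/- salivary glands, against -3.95, -4.28, -4.05 and -4.58 in WT glands. The groups lie far apart: the dimmest Irgm1-/- array stood 3.82 above the brightest WT array, and the probe was well above background on all 4 Irgm1-/- arrays and on 2 of the 4 WT arrays. The difference was 4.71 ± 0.33 (log2, SE; limma adjusted p = 0.000146), the fifth largest of the genes tested. Ifit3b probe 1 read 0.27, -0.74, -1.23 and -1.13 in Irgm1-/- glands, against -5.59, -6.26, -5.79 and -6.03 in WT glands. No WT array was well above background. The fold was therefore computed against the dimmest signal, of any probe, that each WT array called well above background. That is a floor of the array and not the detection limit of this probe. The fold against this floor was 16.3, and the adjusted p of the test was 6.06e-05, in a gene that entered the test only through its Irgm1-/- arrays. Measured means were -0.71 ± 0.69 in Irgm1-/- and -5.92 ± 0.29 in WT (SD, n = 4 each), the WT value being background. Within the 2 slides, each holding both genotypes, the difference of Ifit3 was 5.14 and 4.27. The size depended on the handling of dim signal: with normexp background correction the difference was 3.93 for Ifit3 (adjusted p = 0.000571) and 3.26 for Ifit3b (adjusted p = 0.000835), and averaged over both Ifit3b probes that of Ifit3b was 2.77 (adjusted p = 0.00104).

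Ifit1 read -2.42, -3.05, -3.48 and -3.36 in Irgm1-/- glands, against -7.01, -6.80, -5.84 and -5.49 in WT glands. It was well above background on 3 of 4 Irgm1-/- arrays and on 0 of 4 WT arrays, which put it below the filter for testing across all genes. Against the same kind of floor Ifit1 stood 3.15-fold higher in Irgm1-/-, a mean that includes the array that was not well above background. An exact two-sided permutation test of the 8 arrays gave p = 0.0286, the smallest that 4 against 4 allows. Ifit2 read -4.91, -5.78, -6.39 and -5.67 in Irgm1-/- glands, against -7.26, -6.96, -6.14 and -5.61 in WT glands. The Ifit2 groups overlapped (exact permutation p = 0.2) and only Irgm1-/- replicate 1, the brightest array of the tissue, was well above background. Ifit3b probe 2 behaved likewise, with 1 of 4 Irgm1-/- and 0 of 4 WT arrays well above background and overlapping groups. With no filter on dim probes, Ifit1 passed (adjusted p = 0.016) and Ifit2 did not (adjusted p = 0.505).

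Markers of other cells moved with genotype in salivary gland. Of 9 macrophage markers, 7 were tested and 3 rose, namely C1qa (1.67), C1qb (1.32) and C1qc (1.56), which encode the chains of complement component C1q. For these and the rising markers below, 2.63% of all genes tested rose. The summed level of the 9 ran from 8.55 to 17.4 in Irgm1-/- and from 5.03 to 10.8 in WT glands on the shared linear scale. Of 4 tested T and NK cell markers 1 rose, Gzma, a granule protease of cytotoxic lymphocytes, by 2.5. The neutrophil marker Ly6g, the 1 marker of the monocyte and neutrophil list that was tested, read 3.28 higher in Irgm1-/-. That difference is against WT background signal, as Ly6g entered the test only through its Irgm1-/- arrays. S100a8, S100a9 and Ccr2 of that list were too dim to be tested. Of its 4 markers on the array, 1 was well above background on each Irgm1-/- array and 0 on the WT arrays. Whether neutrophils as such differed was not tested. The duct and acinar list summed to 47.5 to 206.2 in Irgm1-/- and 206.8 to 282 in WT glands. Lpo, a salivary peroxidase, fell by 0.59 (adjusted p = 0.0473), 1 of 7 salivary markers, where 0.236% of all genes fell. The part of these shifts in the Ifit differences was not tested.

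In small intestine, Ifit2, Ifit3b and Ifit3 rose and Ifit1 did not pass the test. That is 3 of 4 genes tested, where 0.188% of all genes tested rose. The rises were 5.80-fold for Ifit2, 5.33-fold for Ifit3b and 4.82-fold for Ifit3, while Ifit1 was 2.13-fold higher with an adjusted p of 0.532. Every Irgm1-/- array lay above every WT array for all 5 probes, as it did for 5.07% of all genes tested.

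Ifit2 read -0.95, -1.1 and -0.83 in Irgm1-/- small intestine, against -3.68, -3.44 and -3.38 in WT. Both groups were tight, with SDs of 0.13 and 0.16, and the gap between their nearest arrays was 2.28. The difference was 2.54 ± 0.15 (SE; adjusted p = 0.00646), and it was 2.73 and 2.44 within the 2 slides. Ifit3 read 2.74, 2.47 and 2.79 in Irgm1-/- small intestine, against 0.71, 0.27 and 0.22 in WT. Ifit3b probe 1 read 0.74, 0.40 and 0.79 in Irgm1-/- small intestine, against -1.56, -2.01 and -1.74 in WT. Neither gene's groups came near each other, and the differences were 2.27 ± 0.19 for Ifit3 (adjusted p = 0.0148) and 2.41 ± 0.18 for Ifit3b (adjusted p = 0.012). Ifit3b probe 2, well above background on 3 of 3 Irgm1-/- and 0 of 3 WT arrays, differed by 2.19. Against the dimmest signal called well above background on each WT array it was 1.73-fold higher.

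Ifit1 read 0.98, 0.38 and 0.73 in Irgm1-/- small intestine, against 0.00, -0.28 and -0.90 in WT, with no overlap. The nearest arrays were 0.38 apart, and the difference of 1.09 ± 0.28 had a 95% interval of 0.43 to 1.75 before adjustment. The small intestine calls rest on few mice. Leaving out any 1 of the 3 Irgm1-/- mice left 0 of 4 past the threshold, leaving out WT replicate 3 left 1 (Ifit2), and leaving out WT replicate 2 left 2, without Ifit3. Samples of the same replicate number deviated together, and with the number as a block 0 of 4 Ifit genes passed, with adjusted p of 0.0592 for Ifit2 and Ifit3b and 0.0803 for Ifit3, and 0.00649% of all genes rose. With normexp the Ifit2 difference was 1.81 (adjusted p = 0.115) and that of Ifit3 2.21 (adjusted p = 0.0536). With sex as a covariate 0 of 4 passed either, at differences of 2.67, 2.40 and 2.56 for Ifit2, Ifit3 and Ifit3b. The Irgm1-/- arrays were also brighter than the WT arrays as a group, with 75th percentiles of 4690, 3868 and 4534 in Irgm1-/- and 2322, 3204 and 2763 in WT, and the part of this in the differences was not tested. Of 9 macrophage markers 0 passed in small intestine (limma). An unadjusted p under 0.05 was reached by 7 of them, as by 1094 of all 15402 genes tested. Their summed level was 3.21 to 4.47 in Irgm1-/- and 1.78 to 2.76 in WT, and its part in the result was not tested.

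In the macrophage samples, 0 of the 3 Ifit genes tested passed in the fit without a block, where 0.0235% of all genes rose. Still, 3 of 3 had an unadjusted p under 0.05 in limma, as had 2025 of all 17024 genes tested. Every Irgm1-/- array lay above every WT array for those 3 Ifit genes and for Ifit3b probe 2. Arrays separated that way for 7.61% of all genes tested. The differences were 2.29 for Ifit1 (4.88-fold, adjusted p = 0.116), 1.75 for Ifit3 (3.37-fold, adjusted p = 0.14) and 1.42 for Ifit3b (2.67-fold, adjusted p = 0.17). Blocking on the replicate number, 3 of 3 passed, with adjusted p of 0.0123 for Ifit1 and Ifit3b and 0.0108 for Ifit3, and 2.12% of all genes rose. Ifit2 was not well above background on any of the 6 arrays.

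Ifit1 read -1.17, -0.36 and -1.28 in Irgm1-/- macrophages, against -4.31, -1.94 and -3.41 in WT. The WT values were widely spread (SD 1.2, against 0.50 in Irgm1-/-), and the lowest was not well above background. Ifit3 read 2.02, 3.08 and 2.70 in Irgm1-/- macrophages, against -0.05, 1.77 and 0.81 in WT. Ifit3b probe 1 read -0.26, 0.72 and 0.45 in Irgm1-/- macrophages, against -1.92, -0.52 and -0.89 in WT. For Ifit3 and Ifit3b the lowest array of either genotype was replicate 1, in both cases the mouse of 8 weeks, and the highest was replicate 2. Ifit3b probe 2 read -2.69, -1.31 and -2.13 in Irgm1-/- macrophages, against -4.99, -2.93 and -4.27 in WT. It kept the same order of arrays, with 3 of 3 and 1 of 3 arrays well above background. Within slides the difference of Ifit1 was 2.36 and 2.14, that of Ifit3 1.68 and 1.89 and that of Ifit3b 1.45 and 1.34.

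Ifit2 read -5.48, -4.59 and -4.18 in Irgm1-/- macrophages, against -5.14, -4.46 and -4.44 in WT. These are signals of the background, with overlapping groups, so Ifit2 has no measured difference there. Markers of other cell types differed between the genotypes in these samples. Acta2, the actin of smooth muscle, fell by 2.72 in Irgm1-/- (adjusted p = 0.0474). Amy1, an amylase, fell by 5.23 (adjusted p = 0.000371), where 0.206% of all genes fell. Both passed with the replicate number as a block. Amy1 belongs to the salivary acinar and duct list, of which 1 of 5 tested genes fell. The others were Dcpp1 (0.99), Aqp5 (0.10), Lpo (0.01) and Smgc (-0.25), none past the threshold. The 3 smooth muscle markers summed to 0.0932 to 0.29 in Irgm1-/- and 0.939 to 1.64 in WT samples, and the 5 fibroblast and endothelial markers to 4.18 to 13.2 in Irgm1-/- and 17.5 to 24.6 in WT. None of the 9 macrophage markers passed in either direction without the block (limma; 2 at an unadjusted p under 0.05), and with it 5 of 9 were lower in Irgm1-/-, as were 5.56% of all genes. The part of these other cells in the Ifit differences was not tested.

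**Figure D2:**
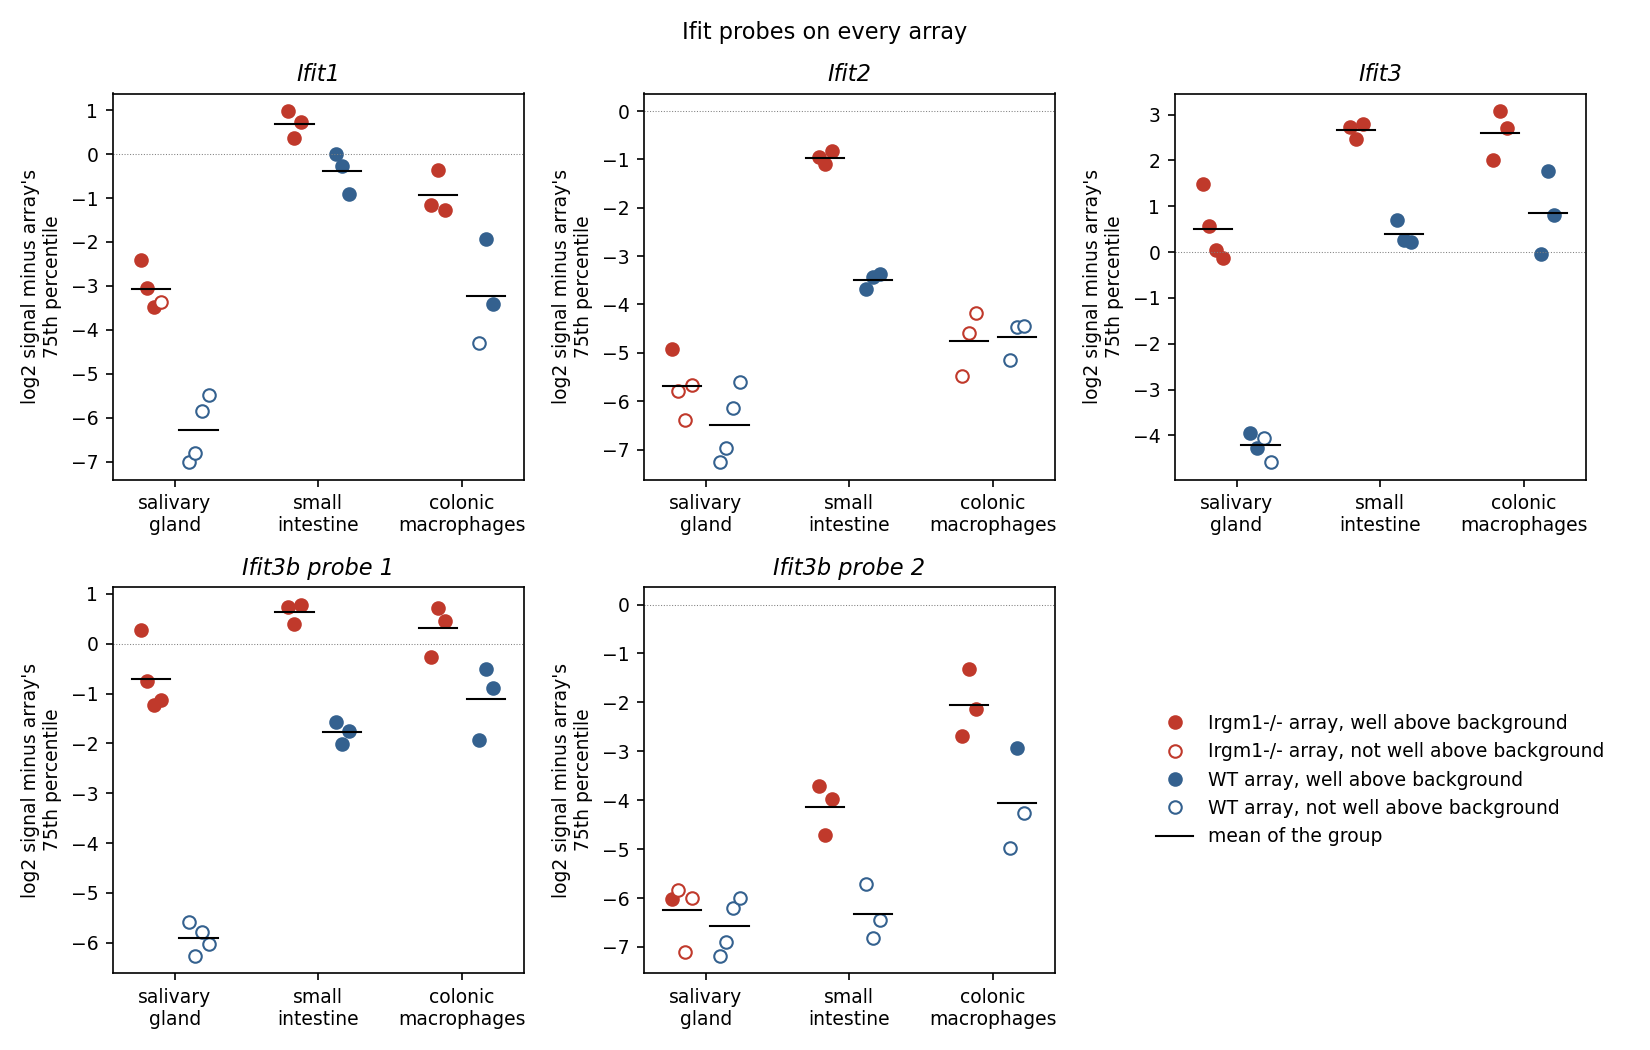
Log2 signal minus the array's 75th percentile for each Ifit probe; 1 point is 1 array, open points were not well above background, red is Irgm1-/- and blue WT, and bars are group means. Ifit3 separates the genotypes in all 3 sources, and Ifit2 is filled on all arrays of both genotypes in small intestine and on none of the macrophage samples.

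**Figure D3:**
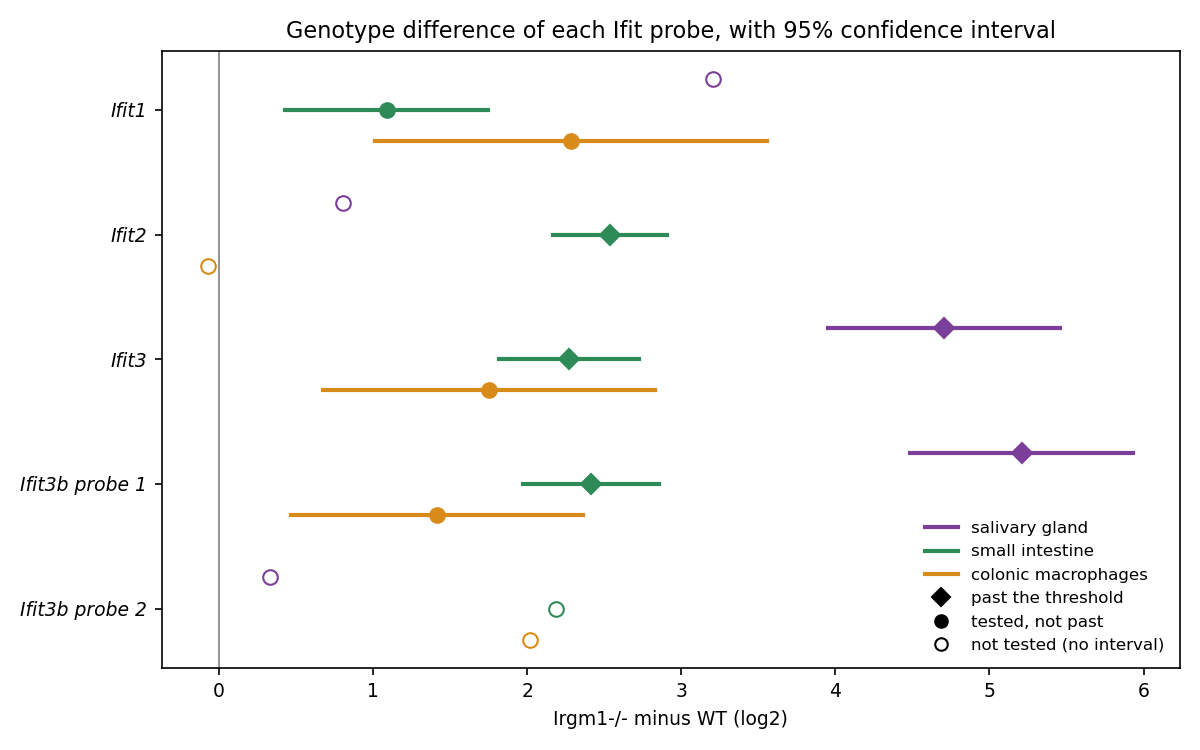
Irgm1-/- minus WT difference (log2) of each probe in the 3 sources, with unadjusted 95% confidence intervals where it was tested. Salivary gland gives 4.71 for Ifit3 and 5.21 for Ifit3b probe 1, the second against background signal in WT, and the same probes give 2.27 and 2.41 in small intestine and 1.75 and 1.42 in macrophage samples.

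The size of the genotype difference was compared between sources in a single fit of the 20 arrays. Ifit3 and Ifit3b could be compared, Ifit3 with 2 of 4 and Ifit3b with 0 of 4 WT salivary gland arrays well above background. Salivary gland minus small intestine gave 2.44 for Ifit3 (95% interval 1.30 to 3.57, adjusted p = 0.0367), where 0.79% of all genes tested passed in that direction. The Ifit3b value of 2.79 rests on WT background signal in salivary gland, so no interval is given for it. The Ifit3 value missed the threshold when any 1 of 12 of the 14 arrays was left out (all but Irgm1-/- salivary gland replicates 3 and 4; adjusted p of 0.0511 to 0.123). With normexp neither gene passed, at 1.72 for Ifit3 and 0.93 for Ifit3b. Salivary gland minus macrophages gave 2.96 for Ifit3 (adjusted p = 0.00154), where 7.72% of all genes passed in that direction, and 3.79 for Ifit3b with the same limit. Averaged over both Ifit3b probes the Ifit3b value was 0.47 against small intestine and 1.05 against macrophages and passed in neither. No 2 sources shared a scan day, so source and scan day cannot be told apart, and the salivary gland also holds other mice with a difference in age.

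Small intestine minus macrophages gave 0 of 3 Ifit genes past the threshold (0 with an unadjusted p under 0.05), where 1.92% of all genes passed in either direction. The values were -1.20 for Ifit1 (95% interval -2.69 to 0.29), 0.52 for Ifit3 (-0.72 to 1.76) and 1.0 for Ifit3b (-0.13 to 2.13). All 3 intervals hold 0, and they reach past 1.0 in size. They come from a fit that took the 2 samples of a mouse as independent. With animal as a random block 0 of 3 passed as well. Ifit1 was not compared between salivary gland and the other sources, nor Ifit2 between any, because they were not tested in both.

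Because both gut samples came from the same 6 mice, the level in small intestine minus that in macrophages was also taken per mouse, on the scale shared by 20 arrays. For Ifit2 it was 3.0, 3.81 and 2.54 in the Irgm1-/- mice, against -0.46, 0.98 and 0.08 in the WT mice. The genotypes did not overlap and the means differed by 2.91 (exact permutation p = 0.1, the smallest that 3 against 3 allows). The macrophage side of the Ifit2 value was not well above background in any of the 6 mice. For Ifit3b it was -0.62, 0.10 and -0.48 in the Irgm1-/- mice, against -2.28, -0.80 and -1.84 in the WT mice, which did not overlap either (difference 1.31, exact permutation p = 0.1). Ifit3b probe 2 overlapped (difference 0.48, exact permutation p = 0.4), and with quantile normalization the probe 1 difference was 0.24 (exact permutation p = 0.6). For Ifit3 it was -0.97, -0.12 and -0.71 in the Irgm1-/- mice, against -2.30, -0.41 and -1.58 in the WT mice, with overlap (exact permutation p = 0.3). Ifit1 went the other way, with a mean of 0.96 ± 0.25 in Irgm1-/- and 1.85 ± 1.33 in WT mice (SD, n = 3 each; exact permutation p = 0.3). These are 5 comparisons of a family, and none can fall below 0.1.

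**Figure D4:**
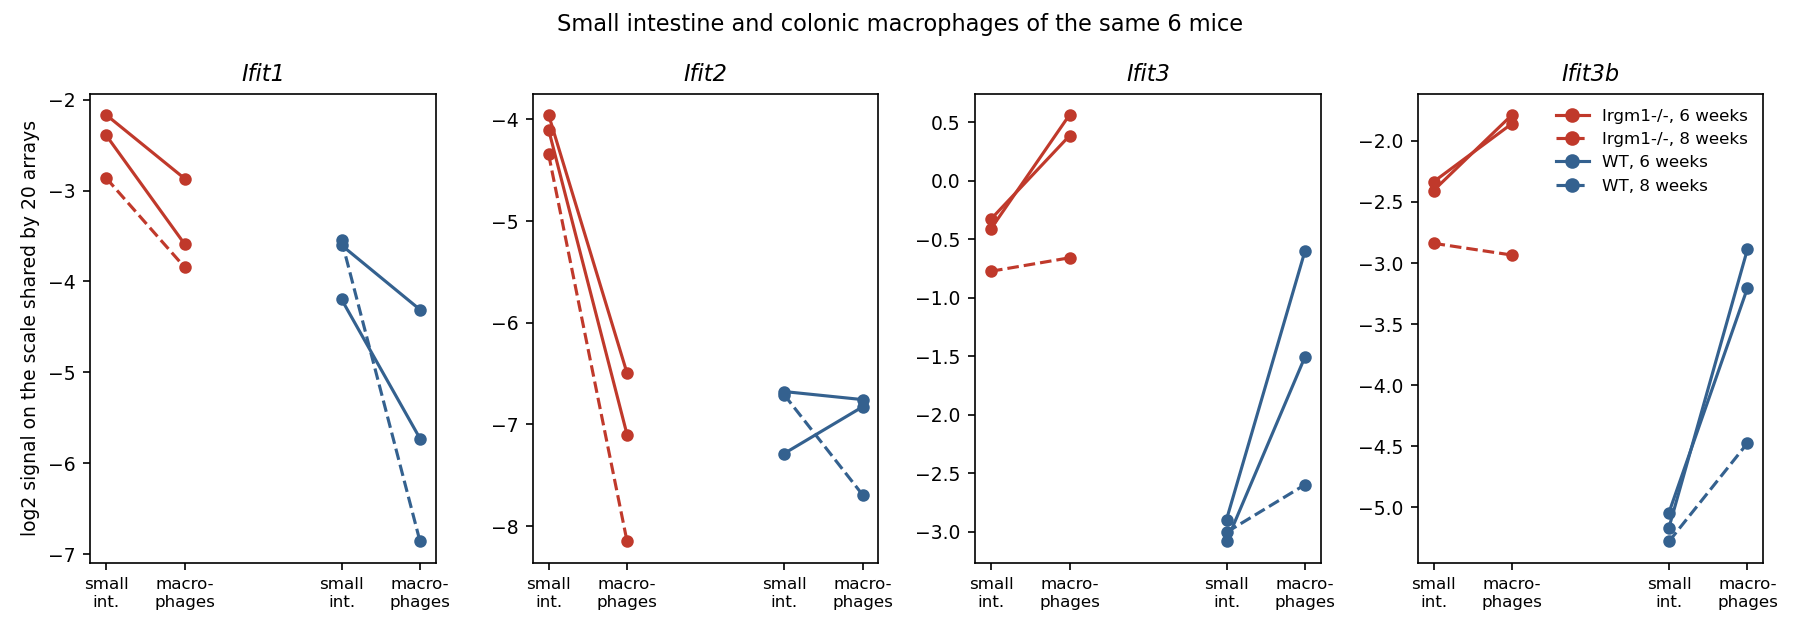
Level of each Ifit gene in small intestine and macrophage samples of the same 6 mice (log2, scale shared by 20 arrays); 1 line is 1 mouse, red Irgm1-/-, blue WT, dashed for mice of 8 weeks. From small intestine to macrophages the Ifit2 lines drop by 2.54 to 3.81 in the Irgm1-/- mice, while the small intestine minus macrophage value is -0.46 to 0.98 in the WT mice.

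Levels were compared over the 6 groups on the scale shared by 20 arrays, set by probes well above background on all of them. Ifit3 averaged 0.37 ± 0.71 in salivary gland, 0.10 ± 0.66 in macrophages and -0.50 ± 0.24 in small intestine of Irgm1-/- mice, and -1.57 ± 1.0, -2.99 ± 0.09 and -4.32 ± 0.28 in macrophages, small intestine and salivary gland of WT mice (SD, n = 4 in salivary gland and 3 elsewhere). Neighbours in this order overlapped down to WT macrophages, and WT macrophages, WT small intestine and WT salivary gland did not overlap with each other. With the percentile of all probes the order of the 6 means was the same apart from Irgm1-/- small intestine and macrophages, which changed places, and the means read 3.90, 2.67 and 2.60 in Irgm1-/- salivary gland, small intestine and macrophages and 0.85, 0.40 and -0.71 in WT macrophages, small intestine and salivary gland. Ifit3b probe 1 ran in the same order as Ifit3 on the shared scale, at -0.83 ± 0.67 in salivary gland, -2.19 ± 0.64 in macrophages and -2.53 ± 0.27 in small intestine of Irgm1-/- mice, and -3.52 ± 0.84, -5.16 ± 0.12 and -6.02 ± 0.29 in macrophages, small intestine and salivary gland of WT mice. Of its neighbours in order, Irgm1-/- macrophages and Irgm1-/- small intestine overlapped and the others did not. These 2 also changed places with the percentile of all probes. WT salivary gland was well above background on 2 of 4 arrays for Ifit3 and on 0 of 4 for Ifit3b probe 1. Its last place therefore rests on background signal for Ifit3b and in part for Ifit3.

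Ifit1 was highest in small intestine in both genotypes, at -2.47 ± 0.35 in Irgm1-/- and -3.78 ± 0.36 in WT. It averaged -3.20 ± 0.46 in salivary gland and -3.43 ± 0.51 in macrophages of Irgm1-/- mice, and -5.63 ± 1.28 in macrophages and -6.39 ± 0.74 in salivary gland of WT mice, the last with 0 of 4 arrays well above background. The Irgm1-/- groups and WT small intestine overlapped from neighbour to neighbour, and WT small intestine stood clear of the 2 WT groups below it. Ifit2 stood out in 1 group only: Irgm1-/- small intestine averaged -4.13 ± 0.20, clear of the next group, while the other 5 lay between -5.81 and -7.25 and overlapped from neighbour to neighbour. Of those 5 groups, WT small intestine was well above background on 3 of 3 arrays, Irgm1-/- salivary gland on 1 of 4 and the other 3 on none.

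**Figure D5:**
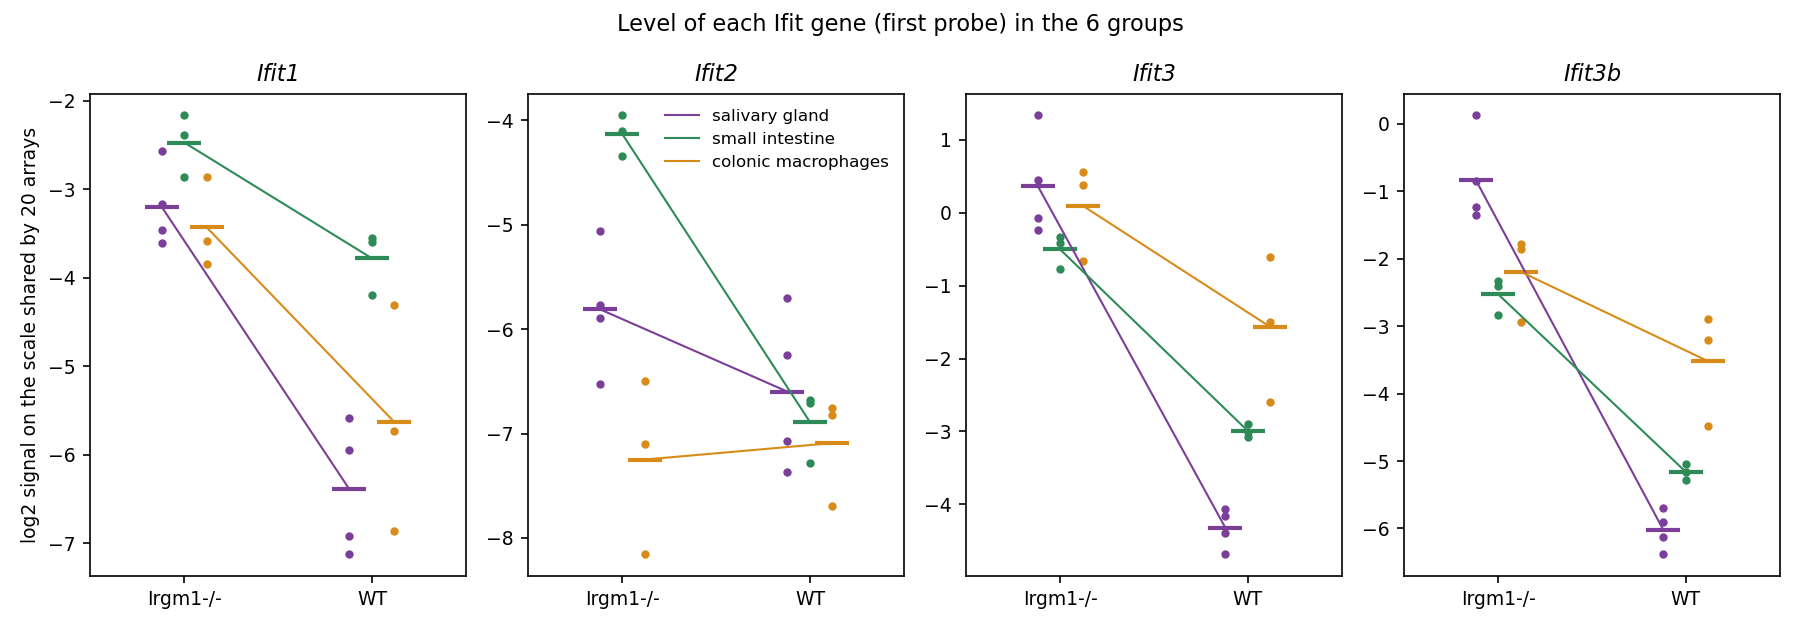
Level of the first probe of each Ifit gene in the 6 groups (log2, scale shared by 20 arrays); points are arrays, thick bars group means, and lines join the genotypes of a source, Irgm1-/- at the left. The Ifit3 means of Irgm1-/- groups lie between -0.50 and 0.37 and those of WT groups between -4.32 and -1.57; levels of different genes cannot be compared.

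Correlations between the members differed in size. After the mean of each source was taken off, Ifit3 and Ifit3b probe 1 correlated by 0.99 over the 20 arrays, Ifit1 and Ifit3 by 0.92, and Ifit2 and Ifit3 by 0.59. With the mean of each of the 6 groups taken off, which leaves only differences between mice of a group, the same pairs gave 0.95, 0.67 and 0.42. These are descriptions over arrays that share genotype, source and brightness. Ifit2 was well above background on all small intestine arrays, on 1 of 4 Irgm1-/- salivary gland arrays and on no other array. Its correlations therefore rest largely on background signal and do not measure how closely it follows Ifit3. Whether the Ifit3 and Ifit3b probes find each other's RNA was not tested. Of 8312 named genes tested in all 3 sources, those most like the mean of Ifit3 and Ifit3b after taking off source means were Rsad2, an antiviral enzyme (r = 0.99), the ubiquitin-like modifier Isg15 (0.99), Irgm1 (0.99), Xaf1 (0.99), Phf11b (0.98), the guanylate-binding protein Gbp3 (0.98), Oas2, a synthetase that activates RNase L (0.98), and Rtp4 (0.98). All 8 had higher means in Irgm1-/- in all 3 sources, from 2.64 for Irgm1 to 5.09 for Oas2 in salivary gland, from 1.16 for Irgm1 to 3.40 for Oas2 in small intestine and from 0.69 for Phf11b to 2.59 for Oas2 in macrophages. That shared direction is not a separate result, because a profile with only source means taken off still holds the genotype difference. With group means taken off the 5 most like were Phf11d (0.96), Gbp2 (0.95), Map4k4 (0.95), the complement gene C4b (0.94) and Pros1 (0.93). None of these is among the 8.

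The rest of the Ifit cluster was less even. Ifit1bl1 and Ifit1bl2 are neighbouring genes related to Ifit1, and neither was tested in salivary gland. Ifit1bl1 read 2.32, 2.47 and 2.43 in Irgm1-/- small intestine, against 1.63, 2.02 and 1.33 in WT, and 1.57, 1.67 and 0.48 in Irgm1-/- macrophages, against -0.11, -0.98 and -1.97 in WT. Its Irgm1-/- arrays all lay above its WT arrays in both sources, as for 5.07% of all genes in small intestine and 7.61% in macrophages. The differences of 0.75 and 2.26 had adjusted p of 0.574 and 0.0985, and 0.536 and 0.01 with the replicate number as a block. Ifit1bl2, which shares the stretch with 2 motif matches shown for Ifit1, differed by 0.09 in small intestine (adjusted p = 0.915) and by 0.34 in macrophages (adjusted p = 0.839). Of 8 genes flanking the cluster, 0 rose: 0 of 2 tested in salivary gland, 0 of 8 in small intestine and 0 of 5 in macrophages, where Acta2 fell. Of all genes tested, 2.63%, 0.188% and 0.0235% rose, so these few genes cannot be set apart from the rest.

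Other interferon-induced effectors that act on RNA rose as well. Of 13 listed, 7 of 8 tested rose in salivary gland, 3 of 12 in small intestine and 2 of 12 in macrophages, where 2.63%, 0.188% and 0.0235% of all genes rose, with median differences of 3.87, 1.23 and 1.16 against 0.06, -0.09 and 0.09 over all genes tested. With the replicate number as a block 0 of 12 passed in small intestine and 7 of 12 in macrophages, where 0.00649% and 2.12% of all genes rose. The largest of those past the threshold in salivary gland were Oas2 (5.09), Oas1a (4.48), Oasl1 (4.15) and Rsad2 (3.94). In small intestine they were Oas2 (3.40), Rsad2 (2.05) and Oas3 (2.04), and in macrophages Oas3 (3.54) and Oas2 (2.59), both of which also passed with the block, all members of the oligoadenylate synthetase family apart from Rsad2. Among 8 RNA sensors and their adaptor, Dhx58, a helicase that modulates RNA sensing, rose in each source, by 2.79 in salivary gland, 1.97 in small intestine and 2.18 in macrophages, and with the block its adjusted p was 0.0875 in small intestine and 0.00965 in macrophages. Ifih1 (1.84) and Ddx58 (1.81), the sensors Mda5 and Rig-I, rose in salivary gland, and no other sensor passed in any source, so that 3 of 6, 1 of 8 and 1 of 7 tested rose.

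Upstream of the family, 7 of 10 tested genes of type I interferon signalling rose in salivary gland, 2 of 13 in small intestine and 0 of 13 in macrophages (limma; 5 at an unadjusted p under 0.05), with medians of 1.51, 0.47 and 0.03. Irf7, a transcription factor of interferon induction, rose by 4.12 in salivary gland, and Isg15 and its protease Usp18 by 3.45 and 3.37, with Socs1, a brake on the receptor kinases, at 3.20. These counts stand against the same shares of all genes as for the effectors. In small intestine Usp18 rose by 2.68 and Isg15 by 1.62, and with the block 0 of 13 passed. In macrophages Usp18 (2.54, adjusted p = 0.0923) and Irf7 (1.74, adjusted p = 0.066) did not pass without the block. With it 4 of 13 rose, Usp18, Irf7, Isg15 and Irf9, and 1 fell, Ifnar2, a chain of the type I receptor (-1.38, adjusted p = 0.0162). In that fit 2.12% of all genes rose and 5.56% fell. Of 11 interferon genes, 10 were on the array and 2, 3 and 8 were tested in the 3 sources, and none passed without the block (limma; 1, 0 and 1 at an unadjusted p under 0.05). The lowest adjusted p of them was that of Ifnb1 in macrophages, with a log2 difference of -1.43 (adjusted p = 0.0813). With the block Ifnb1 passed as lower in Irgm1-/- (adjusted p = 0.0136), 1 of 8 tested, where 5.56% of all genes fell.

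Genes tied to Ifit function by known biochemistry were read next. Of 13 subunits of the translation initiation factor eIF3, which human IFIT1 and IFIT2 bind, 0 of 13 passed in any source, with medians of 0.04, -0.24 and 0.26 (limma; 0, 0 and 1 at an unadjusted p under 0.05). Of 5 enzymes of messenger RNA capping and cap methylation, 3 were tested in salivary gland, 5 in small intestine and 4 in macrophages. Cmtr1, which adds the ribose methyl group that keeps host messages from Ifit1, rose by 1.02 in salivary gland (adjusted p = 0.0127). It was 1 of the 3 tested there, where 2.63% of all genes tested rose. Cmtr1 differed by 0.19 in small intestine (adjusted p = 0.675) and by 0.12 in macrophages (adjusted p = 0.943), and no other enzyme that was tested passed.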

How the data were processed

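Total RNA from 20 samples was labelled with Cy5 and hybridised to single-colour Agilent arrays, per the labels' protocols. The deposited files hold spot intensities from Agilent Feature Extraction 11.5.1.1 (array design 026655, annotation build mm9), per the file headers, in which the processed signal is already background-subtracted. The authors' deposited series table holds linear intensities with medians of 47.6 in salivary gland, 298.7 in small intestine and 381.2 in macrophages. Its scaling is not stated, its lowest rank correlation with an array's scanner values was 0.933, and it was used as an alternative only. Of 39429 probes, 33255 carried a gene name, updated through RefSeq accessions for 27508.

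Spots flagged as outliers (0.434%) were left out, none was saturated, and spots of a probe were averaged. Log2 processed signal minus the array's 75th percentile was used, taken in salivary gland, where under 50% of probes were detected, over probes detected on all its arrays. Each gene was represented by its brightest probe and tested where the number of arrays with it well above background reached the size of the smaller group. Genotypes were compared per source with limma 3.58.1 (R 4.3.3), p-values were adjusted by Benjamini-Hochberg over all genes tested, and 0.05 was the threshold. Single values had two-sided exact permutation tests. The number of arrays limits the precision. The scripts were tested on simulated data.

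The genes and lists were chosen with earlier results of these data known. Named genes were all members, up to 4 past the threshold per list and source (2 as values where none passed), Irgm1, and the genes most like the mean of Ifit3 and Ifit3b. Same-numbered Irgm1-/- and WT samples deviated from their group means together in small intestine (r = 0.20, 0.25 and 0.39) and macrophages (0.50, 0.29 and 0.66), all over 0.1, so values with the number as a block stand beside the calls there (for lists other than the Ifit genes, added after seeing the data). In salivary gland they did not (0.20, -0.11, -0.52 and 0.43).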

Additional observations from a re-analysis of the deposited data

Results flagged for a closer look

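On salivary gland arrays labelled Irgm1-/-, Ifit3b probe 2 had 1 array away from the other 3: replicate 3 at -7.11, against -6.02, -5.83 and -6.00. Its gap to the nearest array was 0.853 of the group's range, above Dixon's 95% critical value for groups of 4. This was 1 of 10 groups of 4 checked, chance flags about 1 in 20 groups, and that array was not well above background.

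The genotype difference itself was compared between sources for Ifit3 and Ifit3b in the fit of 20 arrays. WT salivary gland signals were well above background on 2 of 4 arrays for Ifit3 and on 0 of 4 for Ifit3b, so the Ifit3b values rest on background there. For Ifit3, salivary gland minus small intestine was 2.44 and salivary gland minus macrophages was 2.96, both past the threshold (limma adjusted p of 0.0367 and 0.00154). The Ifit3b values of 2.79 and 3.79 also passed, but against WT background signal, so nothing is concluded from their p-values. With normexp neither gene passed against small intestine. Averaged over both of its probes, Ifit3b passed in neither comparison.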

How the results depend on the processing

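No value changed sign under any alternative run. Leaving out 1 array at a time gave 2 Ifit genes and 137 to 378 genes in salivary gland, 0 to 3 and 2 to 49 in small intestine, 0 and 20 to 42 in macrophages, 1 to 2 and 39 to 101 for salivary gland minus small intestine, 2 and 594 to 1148 for salivary gland minus macrophages, and 0 and 39 to 868 for small intestine minus macrophages. In salivary gland the 2 Ifit calls became 0 where only probes well above background on every array were tested, which drops them, and the 279 genes became 151 scaled to the median, 139 with no filter, 118 detected on every array, 643 with slide as a block and 687 with the replicate block. In small intestine the 3 Ifit calls became 1 with normexp and 0 with the replicate block or with sex as a covariate, and the 29 genes became 3, 1 and 1. In macrophages the 0 Ifit calls became 3 with the replicate block and 3 in the fit of all 20 arrays, which pools the spread, and the 39 genes became 210 scaled to the median, 78 with quantile normalization, 326 with normexp, 1307 with the replicate block, 10 with sex, 64 with an intensity trend, 901 in the fit of 20 arrays and 59 from the authors' table. For salivary gland minus small intestine the 2 Ifit calls became 1 with the percentile over the other set of probes, 0 with quantile normalization, 0 with normexp and 1 with the mean of all probes of a gene, and the 78 genes became 46 with the other set, 39 scaled to the median, 20 with quantile, 26 with normexp and 137 with slide as a random block. For salivary gland minus macrophages the 2 Ifit calls became 1 with the mean of probes and the 832 genes became 431 scaled to the median. For small intestine minus macrophages the 259 genes became 95 scaled to the median, 447 with quantile, 555 with animal and 651 with slide as a random block. Where no reason is given the cause was not tested. Keeping unnamed transcripts, and the per-mouse comparison with quantile or normexp, were added after seeing the data. Dim signal limits Ifit1 and Ifit2 in salivary gland and Ifit2 in macrophages.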
